A study of Mus musculus with 4 samples.

Results

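The genes described here are interferon-induced antiviral effectors, the proteins that act on virus or host in a cell that has sensed interferon. They were chosen by name, with earlier results of these data already known: every array probe whose deposited name or platform symbol belongs to the Ifit, Ifitm, Oas and Oasl, Gbp, Irgm, Slfn or Mx families, or to a list of further genes such as Isg15, Usp18, Rsad2 and Isg20. The rule took 112 of the 45281 probes, which stand for 68 of the 20663 genes named on the array, and 59 of these probes, for 41 genes, were bright enough to test. RNA came from lineage-negative bone marrow cells of mice, the fraction left when cells with mature blood cell antigens are removed, and each sample was read on 1 Illumina mouse WG-6 v2 bead array. The control group, of genotype Atad3afl/fl, had 2 samples, and the deletion group, Atad3afl/flMx1Cre, had 2. Both groups carry floxed alleles of Atad3a, a gene for a mitochondrial inner membrane ATPase, and both were given poly I:C, a synthetic double-stranded RNA that induces interferon, with RNA taken on day 12. Cre is driven in the deletion group by the promoter of Mx1, which is itself interferon-inducible, in every cell type that responds to interferon, so Cre, the transgene and the loss of Atad3a cannot be told apart. The sources used here give no age, sex, strain or pooling of the mice. "After deletion" below names the group and not a cause.

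Type I interferons signal through the receptor chains Ifnar1 and Ifnar2 and the kinases Jak1 and Tyk2 to a transcription factor complex that includes Stat2 and Irf9 and binds the interferon-stimulated response element (ISRE) of its target genes. Interferon gamma acts through another element, the gamma-activated site (GAS). The products of the target genes bind foreign RNA, degrade it, block entry of virus, attack membranes around pathogens or modify proteins with the ubiquitin-like Isg15, and some of them, such as Usp18, dampen the signal again. Blood stem and progenitor cells respond to both interferons and to poly I:C, and they express part of this set without infection.

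Expression is given as log2 intensity after background correction and quantile normalization, and a probe is called detected at a detection p under 0.05 against negative control beads. Detected probes made up 37.47% to 39.91% of each array. Atad3a was lower by 1.07 on the log2 scale after deletion (SE 0.13, limma adjusted p = 0.00866), and it passed with any 1 array left out except deletion replicate 2, without which the change was -0.98 (adjusted p = 0.0646). Its single probe may or may not lie in the deleted part, which was not determined here. Of 12 markers listed for progenitors, such as Kit, Cd34 and Gata2, 11 were detected and Flt3 was not. Genes of T, B and red cell lineages were detected as well, so the fraction also held RNA of cells past the progenitor stage. The labels do not say whether the samples came from separate mice, so the error behind each p-value is the scatter of these 4 arrays, and it may be technical only. Exact relabelling of 2 against 2 samples cannot give a two-sided permutation p below 0.333, so the tests rest on limma's fit across all probes.

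Most of the tested antiviral effector genes were higher after deletion. Oas1g, an enzyme that senses double-stranded RNA, rose most, 5.67-fold, followed by Slfn1, Ifit3, Oasl2 and Isg15 at 3.19-fold to 3.77-fold. Isg20, an RNA exonuclease, fell 4.86-fold. Of the 41 genes, 25 rose and 2 fell (limma, threshold 0.05 on the adjusted p); the other 14 did not pass. That is 61.0% higher and 4.88% lower, where 14.7% and 14.1% of all 10582 tested genes were called in these directions. The median log2 change was 0.84 over the 41 members and 0.0017 over all tested genes. By probe, 31 of the 59 were higher and 3 lower, against 14.0% and 13.0% of all tested probes. Both deletion arrays lay above both controls for 31 of the 41 genes and below both for 8, against 36.9% and 35.9% of all genes. In bulk RNA a change in the share of a cell type cannot be told apart from a change of RNA per cell, for these genes as for any other.

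Fewer genes were called when any 1 array was left out, which leaves 1 array in its group. The median log2 change of the 41 members then ran from 0.75 to 1.07, against 0.84 with all 4 arrays. The 25 genes that rose became 20 without control replicate 1, 15 without control replicate 2, 8 without deletion replicate 1 and 11 without deletion replicate 2, while all genes called higher fell from 1559 to between 299 and 1324. Oas1g, Oasl2, Slfn1, Usp18 and Isg20 kept their calls with any 1 array left out and under every other alternative with a test. The other 22 calls were each lost without at least 1 array, with adjusted p between 0.0504 and 0.217 where lost. No call turned its direction. For dim genes the size of the change also rests on the background correction: with none, Oas2 changed by 0.64, Mx1 by 0.50, Ifit1bl1 by 0.79, Gbp10 by 0.40, Mx2 by 0.67 and Oasl1 by 0.34 on the log2 scale, each still passing, and Oas1c by -0.29, no longer passing (adjusted p = 0.0528), as also with the authors' processed values (-0.23, adjusted p = 0.0712). Only Oas3 among the 41 entered the test with no detection in either control. Of the 37 genes detected on both control arrays 22 rose and 2 fell, but the share of all genes under that filter was not taken. With a detection p under 0.01 on all 4 arrays, 22 of 34 members were higher and 2 lower. Of all 8441 genes under that stricter filter, 1394 were higher and 1278 lower.

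**Figure D1:**
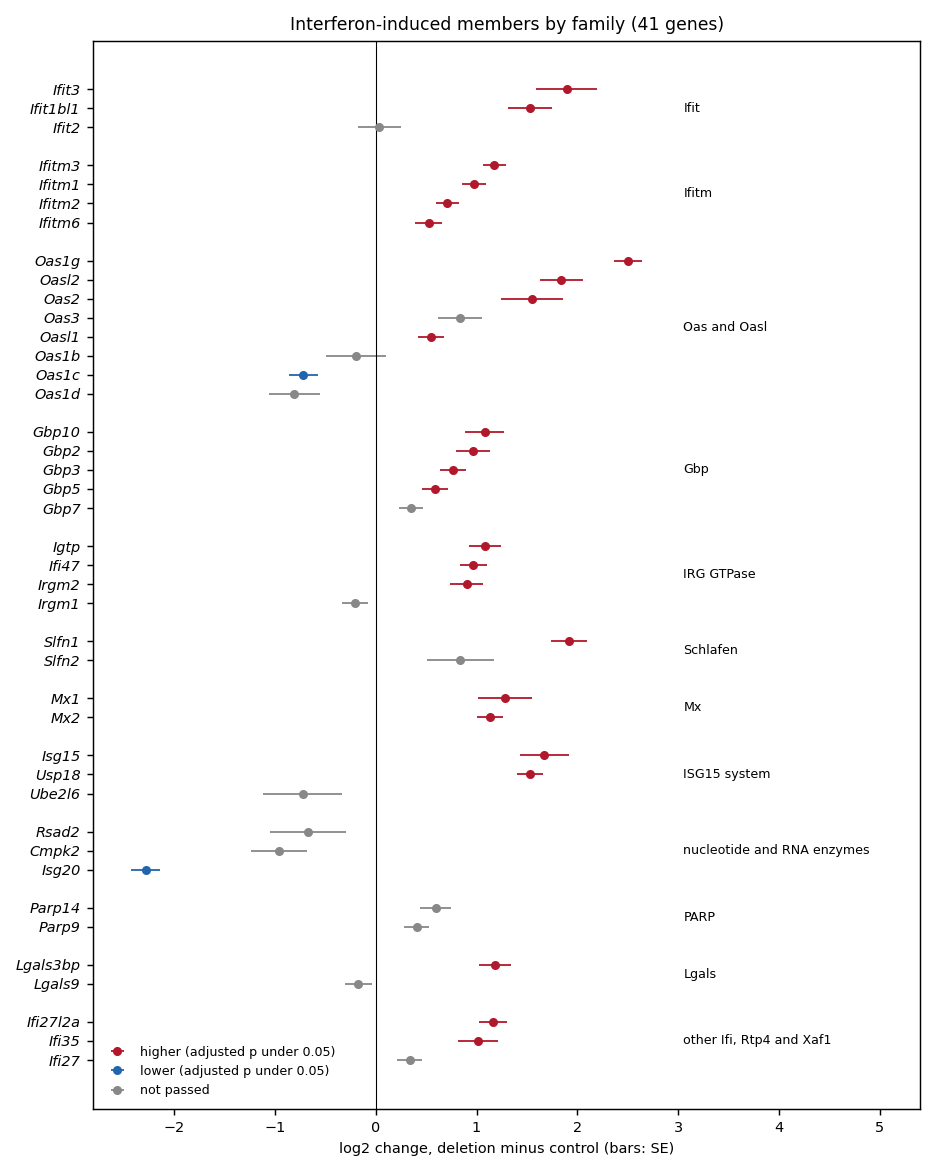
Log2 change after deletion (x axis, deletion minus control) of the 41 tested members, grouped by family (labels at right), with points at the fitted change and bars of 1 SE; n = 2 arrays a group. Red points passed as higher (25 genes), blue as lower (Isg20 and Oas1c), and grey did not pass; Oas1g stands highest at 2.50 and Isg20 lowest at -2.28.

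The 27 members that were not tested were Ifit1, Ifit1bl2, Ifitm5, Ifitm7, Ifitm10, Oas1a, Oas1e, Oas1f, Oas1h, Gbp2b, Gbp4, Gbp6, Gbp8, Gbp9, Gbp11, Iigp1, Slfn3, Slfn4, Slfn5, Slfn8, Slfn9, Slfn10-ps, Slfn14, Herc6, Ifi44, Rtp4 and Xaf1. None had a probe detected on any array. Over the 53 member probes left out of the test, some of them dim probes of tested genes, raw signals ran from 77.1 to 137.3. Of these probes 51 were detected on no array. The 2 detected on 1 array, with the highest signal among them, were probes of Ifitm1, a tested gene. Only a bound can be given for the 27 untested genes, and a change below the detection limit of the array is not excluded by these data.

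The promoters of these genes were searched for the recognition sites named above. The interferon-stimulated core was taken as GAAA, any 2 bases and GAAA again, and the gamma-activated site as TTCNNNGAA, each on both strands, in RefSeq windows of 300 bases (assembly GRCm38.p6) from 250 bases before a gene's start to 50 after it. Windows were at hand for 48 of the 68 members. The interferon-stimulated core was present in 24 of the 48 (50%), against 3.99% of all 27025 genes with a window, and TTCNNNGAA in 10 (20.8%), against 9.55%. Among members with a window the core was found in 11 of the 19 that rose, 1 of the 2 that fell, 5 of the 9 that did not pass and 7 of the 18 that were not tested. Its share was thus 57.9%, 50%, 55.6% and 38.9% in that order, so that genes of every outcome carried it. Overlapping matches were counted once per gene, and 7 members have several windows. A match is a run of letters and not a measured binding site.

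The windows below were chosen to show genes that rose with the core (Isg15, Oas1g, Ifit3, Ifitm3) and a gene that rose without it (Slfn1). Others show a gene that fell with it (Oas1c) and a classic target that did not pass (Rsad2). Isg20, the gene with the deepest fall, held no core in any of its 3 windows, and the most upstream is printed. Capitals mark matches to the core on either strand, and each window is read 5′ to 3′ along the strand of the gene.
Isg15 (chr4:156200769-156201068, minus strand): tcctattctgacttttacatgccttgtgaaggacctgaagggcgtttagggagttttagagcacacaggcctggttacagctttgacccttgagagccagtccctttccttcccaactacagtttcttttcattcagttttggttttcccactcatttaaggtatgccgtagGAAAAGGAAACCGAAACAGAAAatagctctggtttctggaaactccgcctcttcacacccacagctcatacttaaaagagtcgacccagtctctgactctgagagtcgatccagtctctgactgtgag
Oas1g (chr5:120887564-120887863, minus strand): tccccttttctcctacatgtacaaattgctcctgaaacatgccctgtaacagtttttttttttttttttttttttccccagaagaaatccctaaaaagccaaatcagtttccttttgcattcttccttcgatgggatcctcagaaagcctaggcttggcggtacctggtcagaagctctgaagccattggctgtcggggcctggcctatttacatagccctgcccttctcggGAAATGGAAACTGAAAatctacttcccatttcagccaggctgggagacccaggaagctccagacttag
Ifit3 (chr19:34583279-34583578, plus strand): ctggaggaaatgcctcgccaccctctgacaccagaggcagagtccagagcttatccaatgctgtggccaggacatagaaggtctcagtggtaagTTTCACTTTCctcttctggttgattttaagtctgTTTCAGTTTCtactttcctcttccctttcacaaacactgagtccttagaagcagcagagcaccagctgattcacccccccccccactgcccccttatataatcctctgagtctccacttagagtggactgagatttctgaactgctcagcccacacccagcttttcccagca
Ifitm3 (chr7:141010695-141010994, minus strand): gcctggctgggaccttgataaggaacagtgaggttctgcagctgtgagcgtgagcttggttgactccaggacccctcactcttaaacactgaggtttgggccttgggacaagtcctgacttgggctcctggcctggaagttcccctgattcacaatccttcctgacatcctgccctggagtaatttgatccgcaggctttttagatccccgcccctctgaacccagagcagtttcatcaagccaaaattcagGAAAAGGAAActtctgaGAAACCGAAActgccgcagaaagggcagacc
Rsad2 (chr12:26456403-26456702, minus strand): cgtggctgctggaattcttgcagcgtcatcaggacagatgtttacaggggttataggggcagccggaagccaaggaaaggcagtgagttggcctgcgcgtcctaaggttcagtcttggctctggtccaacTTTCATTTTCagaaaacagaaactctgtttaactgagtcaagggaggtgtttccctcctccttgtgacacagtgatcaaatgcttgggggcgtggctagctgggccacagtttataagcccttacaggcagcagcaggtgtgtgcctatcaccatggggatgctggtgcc
Oas1c (chr5:120812465-120812764, minus strand): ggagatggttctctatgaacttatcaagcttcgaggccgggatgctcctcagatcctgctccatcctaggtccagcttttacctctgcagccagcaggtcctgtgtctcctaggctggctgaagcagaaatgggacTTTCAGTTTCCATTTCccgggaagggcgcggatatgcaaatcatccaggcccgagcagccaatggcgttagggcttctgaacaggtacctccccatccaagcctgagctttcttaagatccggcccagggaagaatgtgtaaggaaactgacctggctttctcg
Slfn1 (chr11:83116570-83116869, plus strand): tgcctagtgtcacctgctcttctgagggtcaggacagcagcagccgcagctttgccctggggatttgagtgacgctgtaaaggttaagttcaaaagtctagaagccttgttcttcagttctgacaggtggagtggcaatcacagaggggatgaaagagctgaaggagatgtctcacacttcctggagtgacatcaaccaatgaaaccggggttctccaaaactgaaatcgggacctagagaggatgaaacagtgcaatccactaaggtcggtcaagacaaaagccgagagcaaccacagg
Isg20 (chr7:78913174-78913473, plus strand): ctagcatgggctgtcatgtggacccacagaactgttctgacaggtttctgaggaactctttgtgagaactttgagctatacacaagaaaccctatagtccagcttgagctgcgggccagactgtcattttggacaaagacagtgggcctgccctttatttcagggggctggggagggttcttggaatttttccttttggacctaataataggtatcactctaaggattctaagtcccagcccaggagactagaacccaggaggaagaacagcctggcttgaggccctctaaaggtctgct
Overlapping copies stood in tandem in Isg15, with 3 matches, and in Oas1g, with 2 matches directly before the start. Ifit3 carried 2 separate copies, and Ifitm3 2 copies after its annotated start. Oas1c, which fell, carried 2 overlapping copies, and Rsad2 carried 1. Neither Slfn1 nor the printed Isg20 window held any, which says only that these letters are not in these windows. The gamma-activated letters were found in 6 of the 19 members that rose (Gbp5, Ifi35, Ifitm3, Ifitm6, Igtp and Irgm2) and once in Isg20, and also in 2 of the 9 that did not pass (Gbp7 and Ifit2) and 1 of the 18 that were not tested (Oas1a).

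The 2'-5' oligoadenylate synthetases make a second messenger that activates the nuclease RNase L when they bind double-stranded RNA. Of 12 members of this family 8 were tested, 4 rose and 1 fell. Oas1g read 7.02 and 7.18 in the controls and 9.71 and 9.49 after deletion. Both deletion arrays stood far above both controls, with a log2 change of 2.50 (SE 0.14, adjusted p = 0.0018). A second Oas1g probe, at 6.24 and 6.28 against 8.72 and 8.46, gave a log2 change of 2.34, and 3 other probes of the gene were not detected. Oasl2, a synthetase-like protein with ubiquitin-like domains, read 6.83 and 7.14 in controls and 9.06 and 8.60 after deletion. It was 3.58-fold higher (SE 0.21 on the log2 scale), with no overlap of the groups. Oas2 read 4.69 and 5.35 in controls, where it was detected on 1 array, and 6.86 and 6.28 after deletion. Its rise of 1.55 (SE 0.31, adjusted p = 0.0264) was lost without control replicate 1 (1.22, adjusted p = 0.0599), without deletion replicate 1 (1.26, adjusted p = 0.110) without deletion replicate 2 (1.84, adjusted p = 0.0633) and with no detection filter (adjusted p = 0.0554). Oasl1, a synthetase-like repressor of Irf7 translation, had the smallest rise, 1.46-fold (SE 0.13 on the log2 scale, adjusted p = 0.0406). Without any 1 of the 4 arrays its call was lost, with log2 changes of 0.47 to 0.63 and adjusted p of 0.0567 to 0.200, and so it was with median scaling (0.47, adjusted p = 0.0577) and the replicate block (adjusted p = 0.0559).

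Of the remaining Oas genes 1 fell and 3 did not pass. Oas1c, a close copy of Oas1a, read 6.25 and 5.97 in controls and 5.43 and 5.36 after deletion. It fell 1.65-fold (SE 0.14 on the log2 scale, adjusted p = 0.0273), and without deletion replicate 1 or 2 the call was lost (adjusted p = 0.119 and 0.143; log2 changes of -0.75 and -0.68). Oas1d, known from mouse oocytes, read 5.80 and 5.98 against 5.42 and 4.74 without passing (log2 change -0.81, SE 0.26, adjusted p = 0.0790). Oas1b, the gene of flavivirus resistance in mice, read 5.52 and 6.36 against 5.73 and 5.75, so the groups overlapped. Its log2 change of -0.20 became 0.22 without control replicate 2 and passed as -0.62 without control replicate 1 (adjusted p = 0.0431). Oas3, not detected in either control, had a lower bound of 1.30-fold on its rise in signal and missed the threshold (adjusted p = 0.0518). On chromosome 5 the genes that rose and fell lie in the same array of copies, Oas1g next to Oas1a, which was not detected. Probe sequences were not used here, so cross-hybridisation between close copies such as Oas1a and Oas1g, or Ifit3 and Ifit3b, was not tested.

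Proteins of the Ifit family bind viral RNA that lacks the host cap methylation and stop its translation. Of 5 members 3 were tested and 2 rose. Ifit3, which stabilises Ifit1 complexes in human cells, read 6.46 and 6.83 in controls and 8.93 and 8.15 after deletion. The groups were well apart, but the deletion arrays differed by more than the controls did. Its log2 change was 1.89 (SE 0.30, adjusted p = 0.0159), or 1.71 with the call lost without control replicate 1 (adjusted p = 0.0520). A dimmer Ifit3 probe, not detected in controls, was at least 2.27-fold higher (adjusted p = 0.0120). Its neighbour on chromosome 19, Ifit1bl1, read 5.69 and 5.63 in controls and 7.48 and 6.90 after deletion, a rise of 2.89-fold (SE 0.22 on the log2 scale, adjusted p = 0.0127). That call was lost without control replicate 2 (adjusted p = 0.0539). Ifit2, on the other side of Ifit3, read 7.89 and 7.95 against 8.24 and 7.67, so that 1 deletion array lay above the controls and 1 below. The log2 change of Ifit2 was 0.037 (SE 0.22, adjusted p = 0.909), and -0.19 by its second probe.

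The Ifitm proteins sit in membranes and block the fusion of enveloped viruses with the cell. All 4 that were tested rose, and they lie side by side on chromosome 7. Ifitm3, the member that restricts influenza virus, read 11.03 and 11.15 in controls and 12.26 and 12.28 after deletion. This rise of 2.26-fold (SE 0.12 on the log2 scale, adjusted p = 0.00561) had arrays of each group close together, and it was lost only without deletion replicate 2 (log2 change 1.16, adjusted p = 0.0504). Ifitm1 read 11.69 and 11.75 against 12.62 and 12.77, and was 1.97-fold higher by its brightest probe. A second bright probe passed as well (log2 change 0.79), another did not (0.43, adjusted p = 0.109), and 2 others were not tested. Ifitm2 read 11.49 and 11.52 against 12.17 and 12.26 (1.63-fold, SE 0.11 on the log2 scale). Ifitm6, known from mouse myeloid cells, read 7.62 and 7.41 against 7.99 and 8.09 (1.44-fold, adjusted p = 0.0473). The calls of Ifitm1, Ifitm2 and Ifitm6 were lost without deletion replicate 1 (adjusted p = 0.0533, 0.0881 and 0.160, at log2 changes of 1.05, 0.75 and 0.57) and without deletion replicate 2 (0.0706, 0.112 and 0.217, at 0.90, 0.66 and 0.47). Ifitm6 also lost its call without control replicate 2 (0.42, adjusted p = 0.107), with the replicate block (adjusted p = 0.0793), with median scaling (0.40, adjusted p = 0.0743) and with no detection filter (adjusted p = 0.0579). All 4 read higher on deletion replicate 2 than on deletion replicate 1.

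Guanylate-binding proteins and the immunity-related GTPases (IRGs) are large GTPases that gather on vacuoles around intracellular pathogens, and interferon gamma is their strongest inducer in the mouse. Of 11 Gbp genes 5 were tested and 4 rose. Gbp2, which targets parasite vacuoles, read 8.63 and 8.56 in controls and 9.75 and 9.37 after deletion, and its rise was 1.96-fold (SE 0.17 on the log2 scale, adjusted p = 0.0192). Its groups did not overlap, and a dimmer Gbp2 probe, below detection in both controls, passed too, at least 1.29-fold higher (adjusted p = 0.0119). Gbp3 read 8.86 and 8.96 against 9.59 and 9.77, with a rise of 0.77 on the log2 scale by the brightest probe and 1.14 by the other. Gbp10 read 5.20 and 4.77, detected on 1 control array, against 6.19 and 5.95 (2.12-fold, adjusted p = 0.0208). Gbp5, which promotes inflammasome assembly, read 5.06 and 5.08 against 5.75 and 5.56 (log2 change 0.59, adjusted p = 0.0324). Gbp7 read 7.61 and 7.71 against 7.98 and 8.05 without passing (adjusted p = 0.0879). Without deletion replicate 1 none of the 4 calls held (log2 changes 0.78, 0.86, 0.96 and 0.49 for Gbp2, Gbp3, Gbp10 and Gbp5, adjusted p of 0.0764 to 0.170). The call of Gbp5 was lost without any 1 array and with the replicate block (adjusted p = 0.0554). It was also lost with no background correction (0.20, adjusted p = 0.104), with normexp that ignores control probes (0.28, adjusted p = 0.0733) and with the authors' processed values (0.16, adjusted p = 0.138). Gbp2 and Gbp10 lost theirs without control replicate 2 (0.93 and 0.87, adjusted p = 0.0666 and 0.0508), and Gbp3 and Gbp10 without deletion replicate 2 (0.68 and 1.21, adjusted p = 0.112 and 0.0786).

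Of 5 IRG GTPases 4 were tested and 3 rose. Igtp, also called Irgm3, a regulator that guards host membranes, read 9.44 in both controls and 10.70 and 10.34 after deletion. That was a 2.12-fold rise (SE 0.16 on the log2 scale, adjusted p = 0.0137). Ifi47, or Irgd, read 9.80 and 9.67 against 10.80 and 10.61, a 1.96-fold rise (adjusted p = 0.0114). Irgm2, the neighbour of Igtp on chromosome 11, read 8.56 and 8.73 against 9.72 and 9.38, a 1.87-fold rise (adjusted p = 0.0218). Irgm1, needed in mice for stem cells to withstand interferon, read 12.96 and 13.01 against 12.69 and 12.87 by its brightest probe. That change of -0.21 (SE 0.13, adjusted p = 0.273) did not pass, and 2 dimmer Irgm1 probes had changes of 0.37 and 0.44, which did not pass either, with a mean over the 3 of 0.20 (adjusted p = 0.216). The call of Irgm2 was lost without any 1 array (log2 changes 0.74 to 1.07, adjusted p 0.0538 to 0.104). Igtp lost its call without control replicate 2 (1.08, adjusted p = 0.0513) and without deletion replicate 1 (0.90, adjusted p = 0.0662), and Ifi47 without deletion replicate 1 (0.87, adjusted p = 0.0762) and without deletion replicate 2 (1.07, adjusted p = 0.0574).

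Schlafen proteins restrain cell growth or viral translation, and several mouse members are interferon-induced. Only 2 of the 9 members were bright enough to test. Slfn1, a growth regulator of mouse thymocytes, read 7.46 and 7.45 in controls and 9.58 and 9.16 after deletion. With controls nearly equal and both deletion arrays far above, it was 3.77-fold higher (log2 change 1.92, SE 0.18, adjusted p = 0.00481). Slfn2, its neighbour on chromosome 11, which in mice keeps T cells and monocytes quiescent, read 7.37 and 6.82 in controls and 8.34 and 7.53 after deletion. These groups did not overlap either, yet the spread within them was wide and the change of 0.84 (SE 0.33, adjusted p = 0.128) did not pass, except with the replicate block (adjusted p = 0.0297).

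Mx proteins are dynamin-like GTPases that trap viral nucleocapsids, and many laboratory mouse strains carry a defective Mx1 gene. The Mx1 promoter also drives Cre in the deletion group, and whether the Mx1 probe reads any transcript of the transgene was not tested. Mx1 read 5.36 and 4.64 in controls, with detection on 1 of these arrays, and 6.39 and 6.18 after deletion. It rose 2.43-fold (SE 0.27 on the log2 scale, adjusted p = 0.0297), and the call was lost without a detection filter (adjusted p = 0.0600), without deletion replicate 1 (1.18, adjusted p = 0.133) and without deletion replicate 2 (1.39, adjusted p = 0.107). Mx2 read 6.28 and 6.48 against 7.55 and 7.48, a rise of 2.19-fold (SE 0.13 on the log2 scale, adjusted p = 0.00765). Its call was lost without deletion replicate 1 (1.10, adjusted p = 0.0585) and without deletion replicate 2 (1.16, adjusted p = 0.0557).

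The Isg15 system joins a ubiquitin-like protein to its targets through the conjugating enzyme Ube2l6 and the ligase Herc6, and Usp18 removes it. Isg15 itself read 7.21 and 6.98 in controls and 9.08 and 8.46 after deletion. It rose 3.19-fold (log2 change 1.67, SE 0.24, adjusted p = 0.0127), and the call was lost only without control replicate 2 (1.56, adjusted p = 0.0548). Its only probe has a differing array name and was taken as Isg15 by the platform symbol. Usp18, which also blocks the interferon receptor at Ifnar2, read 8.88 and 8.83 in controls and 10.49 and 10.28 after deletion. That 2.89-fold rise (SE 0.13 on the log2 scale, adjusted p = 0.00407) was matched in direction by a second Usp18 probe (log2 change 2.05, adjusted p = 0.0218). Ube2l6 went the other way: its brightest probe read 8.71 and 7.58 in controls and 7.52 and 7.32 after deletion. Control replicate 1 stood far above the other 3 arrays, and the change of -0.72 (SE 0.39, adjusted p = 0.226) did not pass. The second Ube2l6 probe read 7.63 and 7.69 against 6.50 and 6.20 and was lower (log2 change -1.31, SE 0.15, adjusted p = 0.00744). With the mean of both probes the gene passed as lower (-1.01, adjusted p = 0.0257), as it did by the brightest probe without control replicate 2 (-1.29, adjusted p = 0.0282). Herc6, named Herc5 on the array, was not tested for want of detection.

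**Figure D2:**
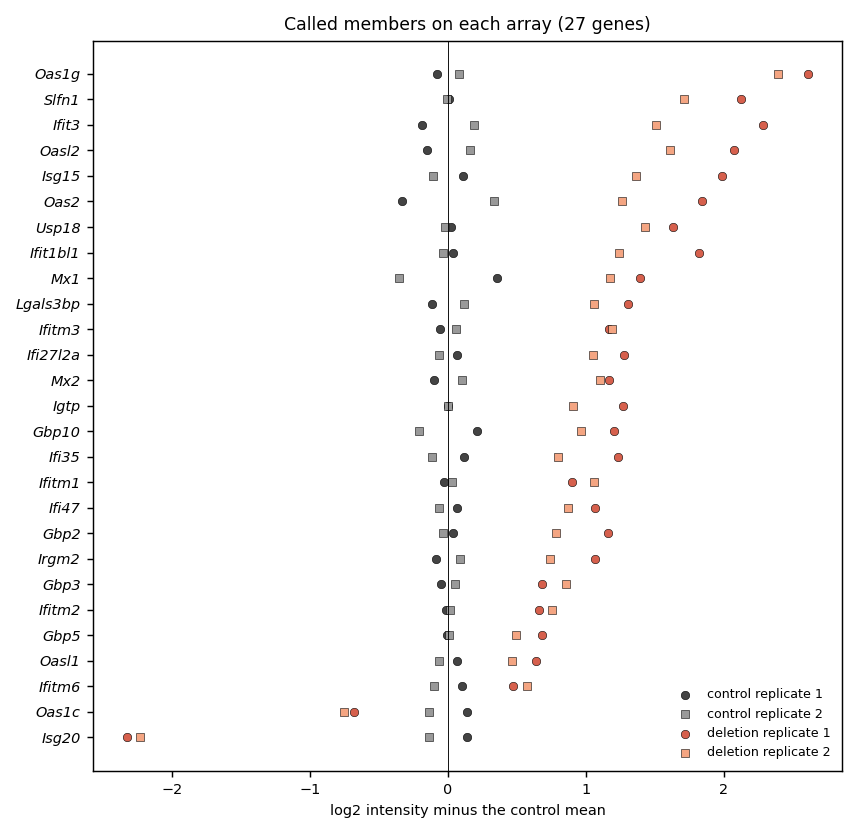
Log2 intensity minus the control mean (x axis) of the 27 called members on each of the 4 arrays, in order of their change. Grey symbols are the 2 control arrays and red symbols the 2 deletion arrays; for each gene both deletion arrays lie on 1 side of both controls, and of the 25 that rose 20 read higher on deletion replicate 1 than on deletion replicate 2.

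A further group of effectors acts on nucleotides or RNA, and of its 3 genes 1 fell and 2 did not pass. Isg20, a 3'-5' exonuclease of single-stranded RNA, read 9.37 and 9.10 in controls and 6.91 and 7.0 after deletion. Isg20 fell 4.86-fold (log2 change -2.28, SE 0.14, adjusted p = 0.00224), with the deletion arrays close together, and its log2 change ran from -2.41 to -1.69 over the alternatives. Rsad2, or viperin, which makes a chain-terminating ribonucleotide, read 8.65 and 8.44 in controls and 8.42 and 7.34 after deletion. Deletion replicate 1 lay just below the controls and deletion replicate 2 far below, and the change of -0.67 (SE 0.38, adjusted p = 0.241) did not pass. Cmpk2, a mitochondrial nucleotide kinase that lies next to Rsad2 on chromosome 12, read 9.23 and 9.27 in controls and 8.69 and 7.90 after deletion. The log2 change was -0.96 (SE 0.28, adjusted p = 0.0653). Cmpk2 passed as lower under 6 of 14 alternatives, among them no background correction (-0.79, adjusted p = 0.0391), median scaling (-1.13, adjusted p = 0.0379), the authors' processed values (-0.80, adjusted p = 0.0416) and deletion replicate 1 left out (-1.35, adjusted p = 0.0362).

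Of the remaining members, Lgals3bp, a secreted glycoprotein that binds galectins, read 9.47 and 9.70 in controls and 10.89 and 10.65 after deletion. It rose 2.27-fold (adjusted p = 0.0101), and without deletion replicate 1 the change was 1.06 with the call lost (adjusted p = 0.0636). Ifi27l2a, a small mitochondrial or nuclear membrane protein, read 10.19 and 10.06 against 11.39 and 11.17, a 2.24-fold rise (adjusted p = 0.00822) whose call was lost without deletion replicate 1 (1.05, adjusted p = 0.0571). Its neighbour Ifi27 read 11.40 and 11.43 against 11.84 and 11.65 and did not pass (log2 change 0.34, adjusted p = 0.115). Ifi35, a leucine zipper protein, read 8.03 and 7.80 against 9.15 and 8.71, a 2.02-fold rise (adjusted p = 0.0247). That call was lost without control replicate 2 (0.90, adjusted p = 0.0826), deletion replicate 1 (0.80, adjusted p = 0.101) or deletion replicate 2 (1.23, adjusted p = 0.0534). Parp14, an ADP-ribosyltransferase, read 9.27 and 9.51 against 10.10 and 9.87 and narrowly missed the threshold (log2 change 0.59, SE 0.16, adjusted p = 0.0514), passing under 5 of 14 alternatives. Parp9, the partner of Dtx3l, read 5.26 and 5.32 against 5.79 and 5.61 (0.41, adjusted p = 0.0753). Lgals9, a galectin of immune cells, read 10.14 and 10.34 against 10.13 and 10.01, and its change of -0.17 by the brightest probe (adjusted p = 0.380) was 0.13 over the mean of its 3 probes (adjusted p = 0.442).

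Where a gene had several tested probes, calls never opposed each other. Of 15 such members 5 had every tested probe called the same way, 7 had none called, and 3 (Ifitm1, Oasl1 and Ube2l6) had some called and some not. Changes of both signs occurred in Ifit2, Irgm1 and Lgals9, none of whose probes passed.

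**Figure D3:**
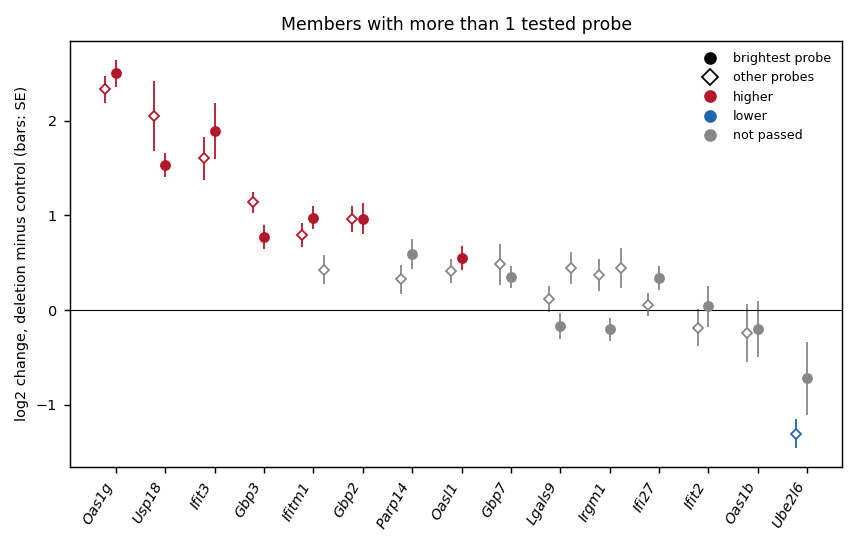
Log2 change after deletion (y axis, bars of 1 SE, n = 2 arrays a group) of every tested probe for the 15 members with more than 1. Filled circles are the brightest probe of a gene and open diamonds the others; Oas1g, Usp18, Ifit3, Gbp3 and Gbp2 are higher by each probe, and Ube2l6 is lower by its dimmer probe.

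The deletion arrays were not alike for these genes. Of the 41 members 32 read higher on deletion replicate 1 than on deletion replicate 2 (78.0%), against 50.4% of all tested genes, and of the 25 that rose 20 did (80.0%), against 46.2% of all genes called higher. For Isg15 the changes from the control mean were 1.98 (deletion replicate 1) and 1.36 (the other deletion array), and for Ifit3 they were 2.28 and 1.51. Rsad2 and Cmpk2 were also higher on deletion replicate 1, at -0.13 and -0.56, than on deletion replicate 2, at -1.21 and -1.35. The 4 Ifitm genes went the opposite way, with medians of 0.78 and 0.90. Cell type marker lists differed in this order. Of 15 tested T and NK cell markers 14 read higher on deletion replicate 1, with medians of 1.04 and 0.73, and all 12 tested erythroid markers did, with medians of -3.27 and -4.49. Fewer did so among progenitor markers (4 of 11, medians 0.71 and 0.88), plasmacytoid dendritic cell markers (3 of 10, medians 0.68 and 0.79), B cell markers (3 of 11, medians -2.76 and -2.43) and neutrophil markers (6 of 14, medians 0.10 and 0.057). Among monocyte and macrophage markers 8 of 11 did, although the medians were 0.14 and 0.31. The part of these cells in the difference between the arrays was not tested.

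**Figure D4:**
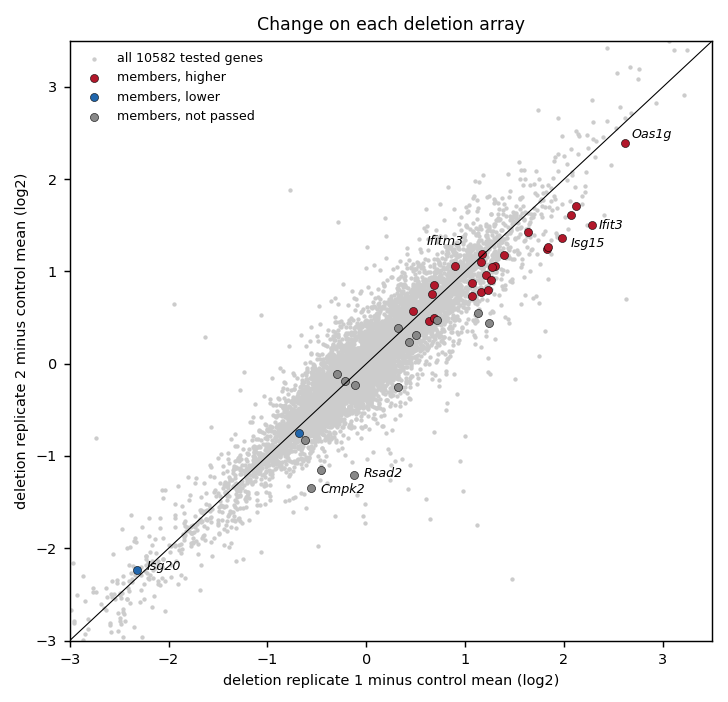
Change from the control mean (log2) on deletion replicate 1 (x axis) and deletion replicate 2 (y axis) for the 41 members, in colour by call, over all 10582 tested genes in light grey; the axes leave out the genes with the largest changes, and the line marks equal change. Most members lie below the line, where deletion replicate 1 is higher, and Ifitm3 lies just above it.

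Genes that act before the effectors were taken from a list of 32 ligands, receptors, kinases, sensors, transcription factors and inhibitors. Of 26 tested, 7 rose and 0 fell (limma, adjusted p under 0.05; 26.9% higher, against 14.7% of all genes), with a median log2 change of 0.33. At an unadjusted p under 0.05, 11 were higher and 0 lower, but the share of all genes at that cut was not taken. Irf7, the factor that amplifies type I interferon, read 5.88 and 6.08 in controls and 7.64 and 7.35 after deletion (2.85-fold, SE 0.16 on the log2 scale). Irf9 rose less, by 0.55 on the log2 scale (adjusted p = 0.0360), a call lost without any 1 array (0.48 to 0.61, adjusted p 0.0646 to 0.186), with the replicate block (adjusted p = 0.0666) and with median scaling (0.35, adjusted p = 0.139). Stat2, which acts with Irf9, read 7.32 and 7.58 against 7.19 and 7.22 and did not pass (-0.25, SE 0.14, adjusted p = 0.242). The receptor chain Ifnar2 read 7.87 in both controls and 8.48 and 8.72 after deletion (1.66-fold, adjusted p = 0.0225), which was lost without any 1 array (0.61 to 0.85, adjusted p 0.0531 to 0.126). Ifnar1 was not detected. Tlr7, a sensor of single-stranded RNA, rose 3.16-fold (SE 0.13 on the log2 scale, adjusted p = 0.0033), and Irf8 1.71-fold (adjusted p = 0.0163), the latter lost without either deletion array (0.78 and 0.76, adjusted p = 0.0955 and 0.103). The transcript of interferon beta, Ifnb1, was not detected, and Ifng read 6.22 and 5.91 against 6.38 and 5.80, with overlapping groups.

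Other interferon-inducible genes, outside the rule, were also mostly higher. Of 37 tested on a list of 43, 27 rose and 0 fell (limma, 73.0% higher), against 14.7% of all genes higher and 14.1% lower. The median log2 change was 0.74. At an unadjusted p under 0.05, 28 were higher and 2 lower, again without a share of all genes at that cut. Ly6a, the stem cell antigen Sca-1, read 9.66 and 9.56 in controls and 12.13 and 12.16 after deletion. Bst2, or tetherin, which holds budding virus at the cell surface, read 8.31 and 8.05 against 10.41 and 9.68, and without control replicate 2 its call was lost (1.74, adjusted p = 0.0579). Tor3a, an ATPase of the endoplasmic reticulum, read 5.46 and 5.17 against 6.87 and 7.0 (3.06-fold, adjusted p = 0.00513). Ifi205, an Ifi200 family gene that was not detected in controls, was at least 7.76-fold higher (adjusted p = 0.00235). The 27 rises became 17 without control replicate 1, 16 without control replicate 2, 6 without deletion replicate 1 and 8 without deletion replicate 2.

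Marker transcripts of several blood cell types also differed between the groups, where 14.7% of all tested genes were higher and 14.1% lower. Of 15 tested T and NK cell markers 9 were higher and 0 lower. Their summed linear intensity was 18592 to 19507 in controls and 30941 to 38037 after deletion. Among those that did not pass, Tcf7, Klrd1 and Cd4 had positive log2 changes (0.81, 0.63 and 0.30). Klrb1c, Il7r and Prf1 had negative ones (-0.026, -0.18 and -0.28). Cd8a, Ncr1 and Gzmb were not detected. Plasmacytoid dendritic cell markers, of which 10 were tested, had 5 higher and 1 lower, and Ccr9 was not detected. Their sums were 6756 to 7312 in controls and 10175 to 10498 after deletion. The 1 lower was Spib, with the largest change of the list (log2 change -3.23), while Lag3, Klk1, Tcf4 and Ly6d did not pass. Of 11 monocyte and macrophage markers 4 were higher and 0 lower (8651 to 8865 against 12348 to 13389). Fcgr1 and Itgam were among those not detected. These sums are weighted to Ly6c1, the brightest marker of the list, at 12.28 and 12.33 against 13.26 and 13.06. Csf1r, Lyz2, Adgre1, C1qa and C1qb had negative log2 changes (-0.44, -0.13, -0.061, -0.34 and -0.77) that did not pass. Cx3cr1 and Cd14 had positive ones (0.31 and 0.25) that did not pass either. Neutrophil markers had 4 higher and 3 lower of 14 (30098 to 30734 against 25145 to 25503), and Mmp8 was not detected. These neutrophil sums are weighted to Mpo, the brightest of the list, at 14.08 and 14.05 against 14.12 and 14.09. The 3 lower were Elane, Fcnb and Prtn3 (log2 changes -3.13, -0.98 and -0.76). The 4 higher were Lcn2, Cxcr2, Camp and Ngp (1.80, 1.07, 0.76 and 0.69). Progenitor markers had 8 higher and 2 lower of 11 (5650 to 5825 against 10670 to 11025). The 2 lower were Kit and Myb (log2 changes -0.82 and -1.44). The sums after deletion are weighted to Ly6a, the brightest of the list there, at 9.66 and 9.56 against 12.13 and 12.16. B cell markers were lower in 11 of 11 (17174 to 17336 against 1205 to 1577; Pax5 was not detected), and erythroid markers in 11 of 12 (70898 to 71234 against 3570 to 10822; Hbb-b1 and Epb42 were not detected). Ly6a, Bst2, Irf8 and Ccl5 stand on a marker list and on an interferon list at once. The part of these cell types in the changes of the antiviral genes, Isg20 included, was not tested.

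**Figure D5:**
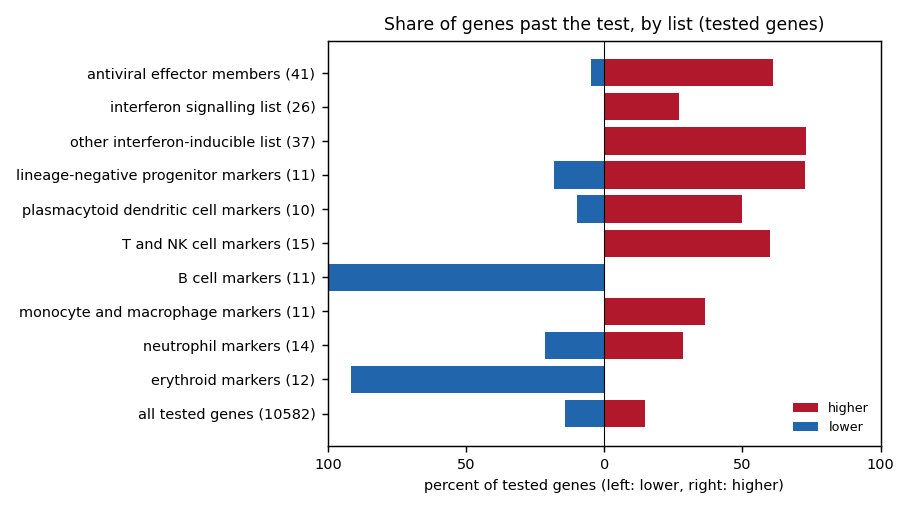
Percent of tested genes that passed as higher (red, to the right) or lower (blue, to the left) in the antiviral members, the interferon signalling and other interferon-inducible lists, 7 cell type marker lists and all tested genes, with the number tested in brackets. The members (61.0% higher) and the other inducible list (73.0%) stand above all tested genes (14.7%), and B cell and erythroid markers lie almost wholly on the lower side.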

How the data were processed

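RNA of lineage-negative bone marrow cells was read on 4 Illumina mouse WG-6 v2 arrays, 2 a group, grouped by the genotype in the labels. The deposited intensity table holds raw, non-normalized probe intensity and a detection p-value per array, made by the authors with GenomeStudio, per the submitters' processing notes, with no version stated there. The authors' deposited value table also holds intensity, on a linear scale, with array medians of 100.5 to 100.6 and ranks that follow the raw table, and with no statement of its scaling in the labels; it served as an alternative.

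Background was corrected with limma 3.58.1 (R 4.3.3, nec, negative control level inferred from detection p-values, offset 16), followed by quantile normalization and log2. Probes entered the test when 2 or more of the 4 arrays had a detection p below 0.05, and were tested with lmFit and eBayes (residual df 2, prior df 2.72), and p-values of all 18367 of them were adjusted together (Benjamini-Hochberg, threshold 0.05). A gene is represented by its brightest tested probe. A gene not detected on any array of a group has a bound as its fold, taken from the lowest detected signal of each array, and fold values "at least N" are such bounds. Precision is limited by the number of arrays.

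Of 45281 probes 34885 had 1 gene in the platform annotation, 18 several and 2465 were named by the array name alone; 7931 had no name. For 34807 of the 34885 the symbol was brought up to date through RefSeq. Of the member probes 80 were found by both names, 8 by the array name and 24 by the platform symbol. In 11 the names differ, and the platform gene was used. Among tested members, Isg15, Ifit1bl1, Parp9 and Gbp7 rest on such probes. With these probes left out, 37 members were tested, of which 23 rose and 2 fell. The text names Atad3a, every member (with array values where tested), the 4 largest rises and falls past the threshold in each pathway list, and Stat2, Irf7, Irf9, Ifnar1 and Ifnar2, except that some items are not reported here; Ifnb1 and Ifng were added after their values were seen. The members and the 9 gene lists were chosen with earlier results of these data known. Replicate numbers are shared by the groups, but with 2 pairs, no word on pairing in the labels and a correlation of deviations of 0.025 they were not taken as pairs. Alternatives changed the background correction, scaling, filter, variance prior, probe summary and threshold, added the replicate number as a block, or left out each array in turn. The fit was tested on simulated data, of which no result is given here.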

Additional observations from a re-analysis of the deposited data

How the results depend on the processing

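The main setting called 25 members higher and 2 lower, and in all 22 to 28 higher and 2 to 3 lower were called, newly called genes included, under changes of background correction, scaling, filter, variance prior, probe summary or naming, the last added after seeing the data. Leaving out 1 array gave 8 to 20 higher and 1 to 3 lower, and a 2-fold minimum 16 and 1. The replicate block, with numbers not shown to pair the samples, gave 23 and 2, and lost Gbp5, Ifitm6 and Oasl1 while Slfn2 passed. Over all 10582 genes the 2-fold minimum gave 565 higher and 624 lower, and the block 1269 and 1167. Interferon signalling genes that rose, 7 in all, became 11 with an intensity trend and robust prior, 2 to 5 with 1 array left out and 3 with a 2-fold minimum. The 27 other inducible genes that rose became 6 to 17 with 1 array left out and 13 with a 2-fold minimum. None of that list was lower, but 1 was without background correction, under normexp that ignores control probes, under median scaling and by the mean of all probes, and 2 were with the intensity trend and with the authors' processed values. For Atad3a the change with 1 array left out ran from -1.15 to -0.98, and -0.98 without deletion replicate 2 no longer passed. Changes that did not pass turned sign in 4 genes: Ifit2 was -0.099 with median scaling, -0.25 to 0.32 with 1 array left out (lowest without deletion replicate 1) and -0.076 with the mean of probes, Irgm1 was 0.20 and Lgals9 0.13 with the mean of probes, and Oas1b ran from -0.62 to 0.22 with 1 array left out, highest without control replicate 2. The cause was not tested. Median scaling moved the median of all genes from 0.0017 to -0.10. Residual df of 2, and signals near background for 27 untested members, limit what can be seen.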
